A study of Homo sapiens with 12 samples.

Results

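The 10 genes described here carry the core of canonical WNT signalling: the co-receptors LRP5 and LRP6, the scaffolds AXIN1, AXIN2 and APC, the kinases GSK3A, GSK3B and CSNK1A1, the signal carrier CTNNB1 (beta-catenin) and the DNA-binding factor TCF7L2. They were taken from a list of gene names, and a peak was given to a gene when its midpoint lay inside the gene's span on the same strand. They held 225 of the listed peaks over 6 libraries, and they are 10 of the 12282 protein-coding genes with such a peak in at least 1 library. The libraries came from acRIP-seq in the colorectal cancer line SW620, of human origin. In this method fragments of RNA that bear N4-acetylcytidine (ac4C) are captured by an anti-ac4C antibody, and stretches enriched in reads are listed as peaks. The background against which this enrichment was measured is not given in the sources used here. Control libraries (shControl, n = 3) came from cells labelled WT, and knockdown libraries (shNAT10, n = 3) from cells in which a short hairpin RNA lowers NAT10, the enzyme that writes ac4C. Both lines were made with lentivirus, and which of the study's NAT10 hairpins these libraries carry is not given in the sources used here. Nothing in the labels says that the 3 libraries of a group came from separate cultures, so p-values measure the spread between these libraries, which may be technical.

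Without a WNT ligand, AXIN and APC hold beta-catenin beside CSNK1A1 and the GSK3 kinases, which phosphorylate it and so mark it for destruction. A ligand brings Frizzled together with LRP5 or LRP6, the complex is drawn to the membrane, and beta-catenin builds up and enters the nucleus, where it works with TCF7L2 on target genes such as AXIN2. In the colon this pathway keeps crypt stem cells dividing, and most colorectal cancers, SW620 among them, have lost a working full-length APC.

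A control library listed 18241 to 22619 peaks and a knockdown library 17877 to 28752, the longest list being that of knockdown replicate 1. Each peak had a position and a score but no read count, so their depth is unknown. The score started at 50 and stood at exactly 3100 for a share of peaks that ran from 7.61% to 13.7% over the libraries. It was therefore read only as a score rank, the percentile of a peak among all peaks of its own library from 0 (lowest) to 100 (highest). On this scale the score of 3100, called the tied top score here, sat between 92.7 and 96.0. Above it stood 44 to 126 peaks per library, with scores up to 3233.06. A peak list does not measure the amount of an mRNA, so fewer modified molecules and less of the transcript cannot be told apart. The NAT10 gene had 1, 0 and 2 peaks in control and 2, 0 and 1 in knockdown, which checks no label. Of 11 epithelial and colorectal marker genes 8 had a peak, 5 of them in all 6 libraries, and KRT18, KRT20 and CDX1 had none. Of 7 markers of other cell types COL1A1 and VWF had a peak, neither in all 6 libraries.

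The first question was whether NAT10 knockdown changed how many peaks these transcripts carried. The 10 genes together held 37, 40 and 35 peaks in control and 44, 36 and 33 in knockdown. Control averaged 37.3 ± 2.52 and knockdown 37.7 ± 5.69 (SD, n = 3 each), and the groups overlapped. As a share of a library's peaks this was 0.185% ± 0.0157 (SD, n = 3) and 0.176% ± 0.0243 (SD, n = 3). Of the 10 genes, 8 had a peak in all 6 libraries, which held for 48.6% of the 12282 genes. The 2 others were CSNK1A1 and CTNNB1. In none of the 10 genes did every library of one group list more peaks than every library of the other, a pattern that 2.22% of all genes showed (1.57% with more in knockdown and 0.651% with more in control). No member was group-specific, that is, listed in every library of a group while absent from the other group, as 0.700% of all genes were (0.366% in knockdown and 0.334% in control). The mean was higher in knockdown for 3 genes, lower for 4 and equal for 3. The two-sided exact permutation test of the peak number gave an adjusted p of 1 for each member and for every other gene, and the smallest unadjusted p that 3 against 3 libraries allow, 0.1, was reached by 273 of the 12282 genes and by 0 of the 10.

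**Figure D1:**
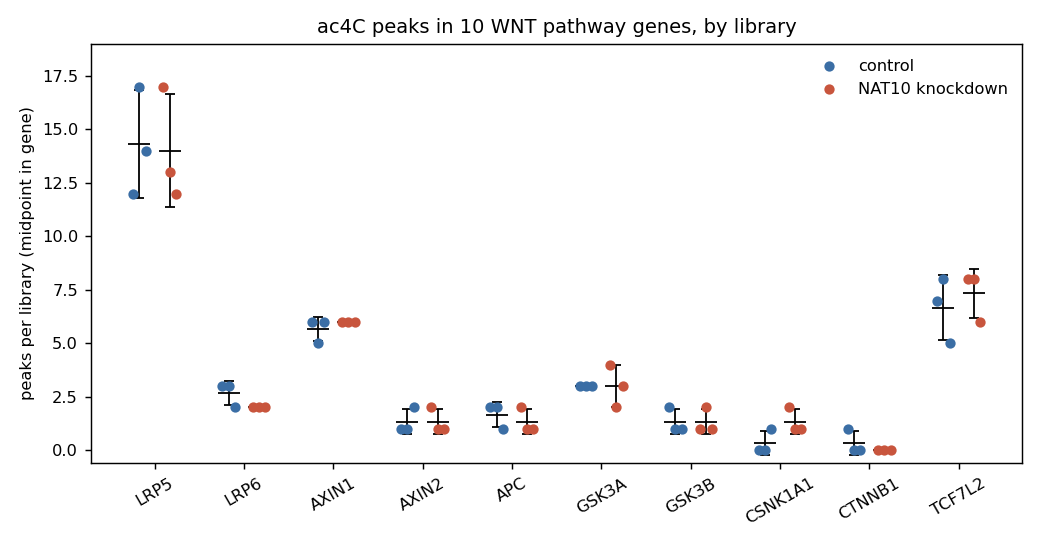
Number of peaks per library (y axis) in each of the 10 genes (x axis), with control libraries in blue, NAT10-knockdown libraries in red, and the mean ± SD of 3 libraries in black. LRP5 held 12 to 17 peaks in every library and CTNNB1 at most 1, and the 2 groups overlapped in every gene.

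The genes differed far more from each other than the groups did. LRP5 held on average 14.2 peaks per library, TCF7L2 7.0 and AXIN1 5.83, whereas the mean was 3.0 for GSK3A, 2.33 for LRP6, 1.5 for APC, 1.33 for both AXIN2 and GSK3B, 0.833 for CSNK1A1 and 0.167 for CTNNB1. Only 33 of the 12282 genes had a higher mean than LRP5, which put it above 99.7% of them, TCF7L2 above 97.4% and AXIN1 above 95.6%. APC, AXIN2 and GSK3B each had 1 or 2 peaks in every library, and their order was within the spread between libraries, while LRP6 had 2 or 3. Within related pairs, LRP5 exceeded LRP6 and AXIN1 exceeded AXIN2 in 6 of 6 libraries, and GSK3A exceeded GSK3B in 5 of 6. The order did not follow the span of the genes, since GSK3B had the longest span (273 kb) and GSK3A the shortest (12.4 kb).

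Merged over the 6 libraries on the same strand, the peaks of the 10 genes formed 53 regions, numbered here from the 5′ to the 3′ end of each gene. Of these, 25 (47.2%) had a peak in all 6 libraries, against 21.9% of the 40623 regions in all protein-coding genes, and 7 (13.2%) had a peak in 1 library, against 38.7%. Knockdown replicate 1 was that library for 5 of the 7 and control replicate 2 for the other 2. Over all protein-coding genes, these libraries were the only one for 6968 and 3623 of 15701 such regions. The edges were the same in every library for 36 of the 46 regions seen in at least 2 libraries (78.3%, against 60.9% of all such regions). Along the gene spans, introns included, 9 regions lay in the first 10% or just before it, 34 in the middle and 10 in the last 10%. Exon, coding and untranslated parts were not assigned, since no exon annotation was used here.

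**Figure D2:**
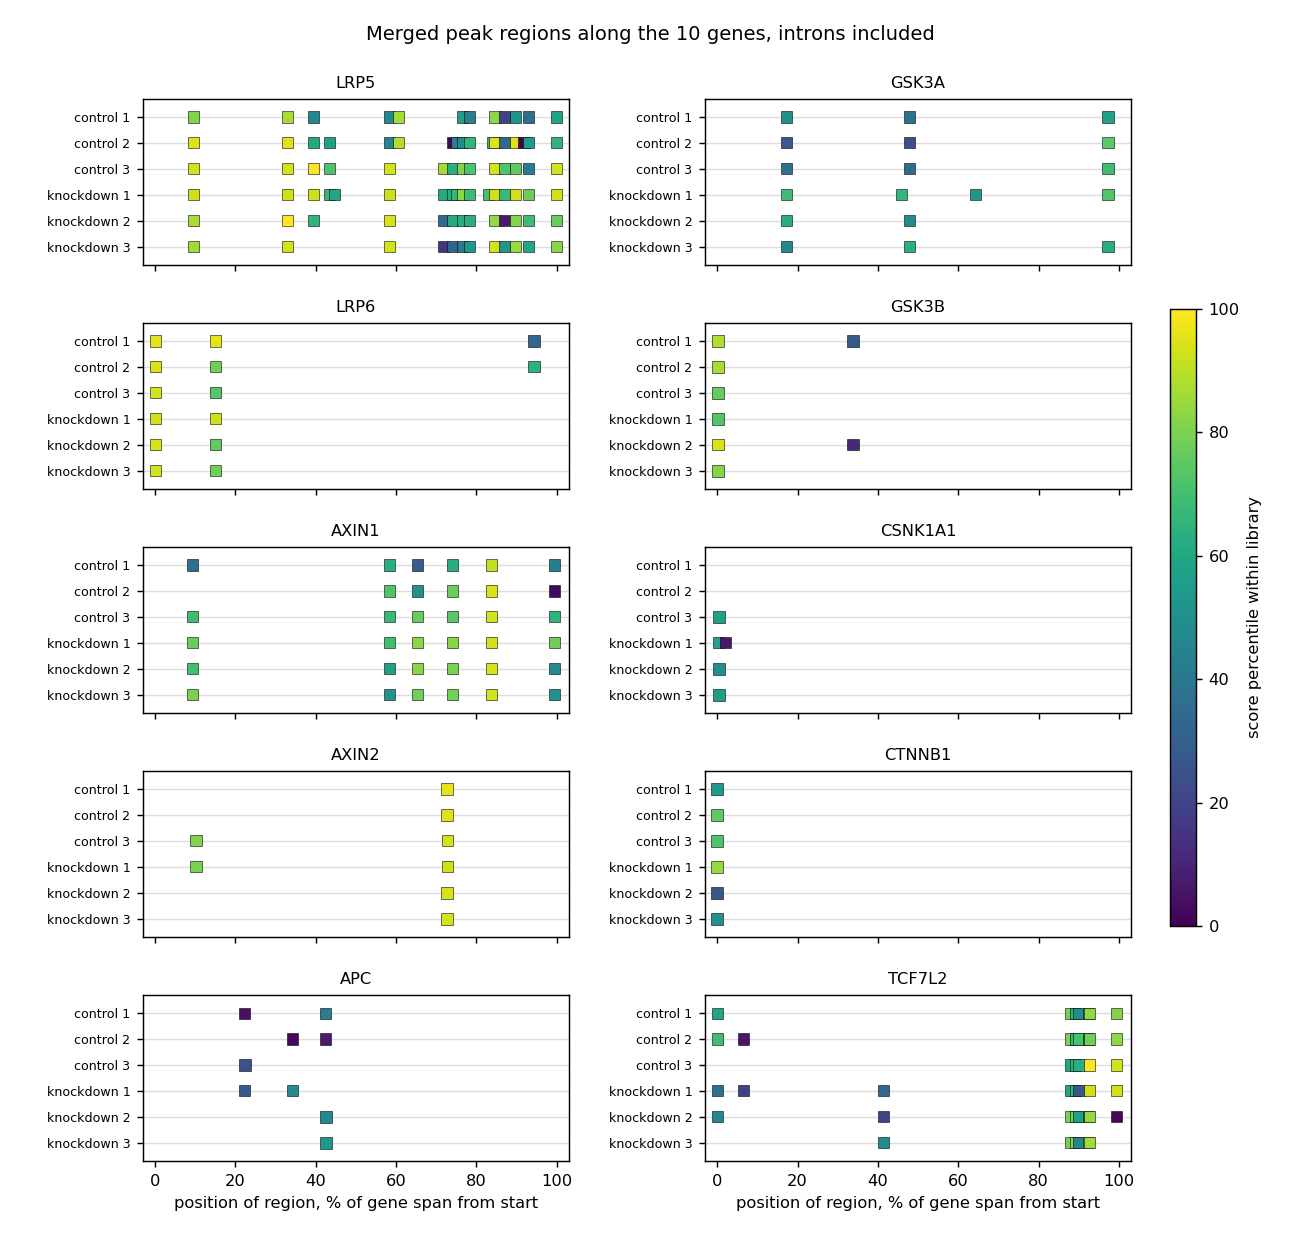
Regions with a peak along the 10 genes, 1 row per library, with position as percent of the gene span from its annotated start on the x axis and the score percentile within the library as colour. GSK3B, CSNK1A1, CTNNB1, LRP6 and TCF7L2 had a region at the gene start, TCF7L2 also a cluster between 87.8% and 92.7% of its span, and APC none beyond 42.4%.

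In 5 of the genes a peak covered transcribed bases of an annotated start site, and the first such bases inside the peak are shown because they are the part of these regions for which the RefSeq start windows (GRCh38.p14) give the sequence. The RefSeq span of LRP5 begins further upstream than the start site shown. They are written 5′ to 3′ on the transcribed strand, with every CCG in capitals, since CCG is the setting in which ac4C is found in human ribosomal and transfer RNA. The GSK3B stretch (chr3:120094398-120094417, minus strand) and the LRP5 stretch (chr11:68312609-68312638, plus strand) lay in a peak in 6 libraries, as did that of CTNNB1 (chr3:41199505-41199534, plus strand). Those of CSNK1A1 (chr5:149551410-149551439, minus strand) and TCF7L2 (chr10:112950250-112950279, plus strand) did so in 4.
GSK3B: cgggcttgtgCCGCCGCCGc
LRP5: gcCCGaggggggaggcggaggcgCCGggag
CTNNB1: aagcctctcggtctgtggcagcagcgttgg
CSNK1A1: cccagagtgctctgcgCCGtgaagaagcgg
TCF7L2: aataatctCCGctcccagactactCCGttc
CCG occurred 3 times in the 20 bases of GSK3B, 2 times in the 30 bases each of LRP5 and TCF7L2, 1 time in CSNK1A1 and not in CTNNB1. The stretches differ in their distance from the start, being transcribed bases 1 to 30 in CTNNB1 and CSNK1A1, 4 to 33 in TCF7L2, 19 to 48 in LRP5 and 31 to 50 in GSK3B. Over the 22183 start windows of protein-coding genes, CCG stood on the transcribed strand in the same bases in 47.4%, 48.9%, 46.5% and 35.7% of windows, in that order. In bases 1 to 30 it stood in 62.7% of the 3000 windows with a peak over the first 50 bases in all 6 libraries. Where no library had such a peak, it stood in 42.0% of 15321 windows. A match is a description of the letters and does not locate a modified base. The start windows of APC, AXIN1 and GSK3A had no peak in any library, and LRP6 and AXIN2 had no entry in the table of windows.

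LRP5, the receptor chain that binds WNT together with Frizzled, had the most peaks of the 10. LRP5 (chr11:68298412-68449275) had 12, 17 and 14 peaks in control and 17, 13 and 12 in knockdown, means of 14.3 ± 2.52 and 14.0 ± 2.65 (SD, n = 3; exact permutation p = 1). The groups overlapped over nearly their whole range. Its peaks fell into 20 regions, 10 of them found in all 6 libraries, and 15 of the 16 regions seen in at least 2 libraries had identical edges. Region 2 (chr11:68347847-68348243, 32.9% of the span) had the highest ranks, 86.8, 94.8 and 93.2 in control and 92.7, 99.9 and 93.2 in knockdown, at or above the tied top score in 5 of 6. Region 15 (chr11:68425978-68426187) was at that score in 4 libraries, and its ranks of 82.6, 94.8 and 93.2 in control and 92.7, 83.6 and 93.2 in knockdown overlapped. Most LRP5 regions thus sat at the same positions in both groups while their ranks moved between libraries.

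Of the other LRP5 regions found in all 6 libraries, regions 1, 11, 12, 16, 17 and 20 overlapped between groups as well. Region 1 (chr11:68312609-68312805), whose first bases are shown above, ranked at 81.4, 94.8 and 93.2 in control and 92.7, 86.9 and 86.1 in knockdown (exact permutation p = 0.8). Region 11 (chr11:68413689-68414012) ranked at 55.5, 48.9 and 81.5 against 82.7, 62.1 and 39.6, and region 12 (chr11:68416328-68416527) at 42.9, 65.3 and 71.7 against 69.0, 64.0 and 53.3. In both, control replicate 1 or 2 and knockdown replicate 3 were the low libraries. Region 16 (chr11:68429575-68429700) had the widest scatter, with 19.5, 32.8 and 72.3 against 67.3, 7.19 and 52.1 and nearly equal means of 41.5 ± 27.4 and 42.2 ± 31.2 (SD, n = 3; exact permutation p = 1). Region 17 (chr11:68433602-68433838) ranked at 52.3, 94.8 and 75.1 against 92.7, 81.3 and 84.8, and region 20 at the 3′ end (chr11:68448809-68449275) at 57.8, 65.1 and 93.2 against 92.7, 76.7 and 82.3. Their means were 12.2 and 11.9 points higher in knockdown, less than the SD of the control libraries (21.3 and 18.7; exact permutation p = 0.5 and 0.4).

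Several LRP5 regions were listed unevenly. Region 7 (chr11:68389881-68390052) had a peak in control replicates 1 and 2, at ranks of 86.2 and 88.6, and in no other library. Region 8 (chr11:68406524-68406813) had a peak in control replicate 3, at 86.9, and in the 3 knockdown libraries at 60.8, 34.9 and 14.9. The first thus leaned to control and the second to knockdown by 2 libraries (Fisher's exact test, two-sided, p = 0.4 each). Region 6 (chr11:68386316-68386712) had ranks of 46.9, 44.1 and 93.2 in control and 92.7, 94.0 and 93.2 in knockdown. Control replicate 3 and the 3 knockdown libraries were all at the tied top score there. The knockdown SD therefore reflects only where that score fell in each list. The means of 61.4 ± 27.6 and 93.3 ± 0.647 (SD, n = 3) were not separated (exact permutation p = 0.3, adjusted p = 0.747). Region 19 near the 3′ end is given with the score ranks below.

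**Figure D3:**
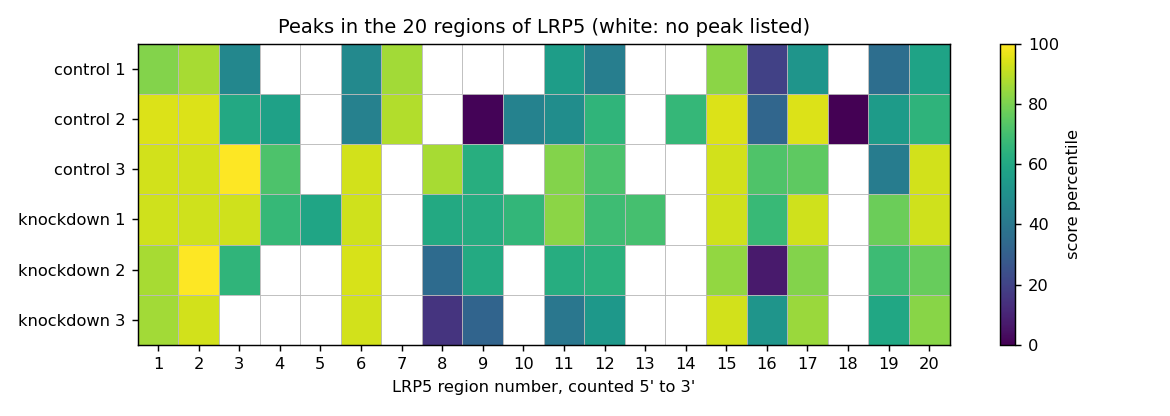
Score percentile (colour) of the peak in each of the 20 merged regions of LRP5 (x axis, numbered 5′ to 3′) in each of the 6 libraries (rows), white where no peak was listed. Of the 20 regions 10 were filled in every library, region 7 in 2 control libraries, and regions 5 and 13 in knockdown replicate 1.

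LRP6, its close relative (chr12:12116025-12267044), had far fewer peaks, 3, 3 and 2 in control and 2, 2 and 2 in knockdown (exact permutation p = 0.4). The difference was a single region near the 3′ end. Region 1 at the gene start (chr12:12266681-12267012) was at the tied top score in all 6 libraries, as held for 10.0% of the regions of all genes found in all 6. Region 2 (chr12:12244262-12244655) had ranks of 96.0, 78.7 and 73.3 in control and 92.7, 75.2 and 78.8 in knockdown (exact permutation p = 1). Region 3 (chr12:12124565-12124662, 94.3% of the span) had a peak in control replicates 1 and 2, at 32.4 and 64.4, and in no knockdown library (Fisher's exact test, p = 0.4).

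AXIN1, the scaffold that limits assembly of the destruction complex (chr16:287440-352723), had 6, 5 and 6 peaks in control and 6, 6 and 6 in knockdown (exact permutation p = 1). Of its 6 regions, 5 were found in all libraries and the other was missing from control replicate 2 alone. That one, region 1 (chr16:346148-347106, 9.34% of the span), had ranks of 35.9 and 69.0 in control replicates 1 and 3 and of 76.7, 69.7 and 80.4 in knockdown. Region 5 (chr16:297722-298251) was at the tied top score in 5 of 6 libraries and at 90.6 in control replicate 1. Region 6 (chr16:287440-288248, 99.4% of the span) reached the annotated 3′ end and varied most, with 42.4, 2.56 and 64.8 in control and 77.5, 47.2 and 51.8 in knockdown (exact permutation p = 0.4). Region 2 (chr16:314543-314683) went the other way, with 63.0, 72.6 and 67.3 in control and 69.7, 56.8 and 52.1 in knockdown (exact permutation p = 0.3, adjusted p = 0.747). Of its 5 regions in all libraries, 4 had the higher mean in knockdown and region 2 the higher mean in control.

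AXIN2, the inducible AXIN and itself a WNT target gene (chr17:65528563-65561648), had 1, 1 and 2 peaks in control and 2, 1 and 1 in knockdown (exact permutation p = 1). Region 2 (chr17:65537324-65537835, 72.7% of the span) stood at the tied top score in all 6 libraries. Region 1 (chr17:65557806-65558736) was listed in control replicate 3, at 81.0, and in knockdown replicate 1, at 79.7, so each group had it 1 time.

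APC, the tumour suppressor that presents beta-catenin to its kinases (chr5:112707498-112846239), had 2, 2 and 1 peaks in control and 2, 1 and 1 in knockdown (exact permutation p = 1). Like CSNK1A1, it had no region in more than 4 libraries, and its ranks ran from 1.62 to 52.8. Region 1 (chr5:112738332-112738460) had ranks of 4.06 and 25.1 in control replicates 1 and 3 and 28.6 in knockdown replicate 1. Region 2 (chr5:112754873-112755025) had 1.62 in control replicate 2 and 47.3 in knockdown replicate 1. Region 3 (chr5:112766326-112766410) had 42.0 and 7.16 in control replicates 1 and 2 and 46.7 and 52.8 in knockdown replicates 2 and 3. In each region the start was shared by every library and the end differed in every library. No library listed a peak beyond region 3, at 42.4% of the span, whereas the long final exon with most of the coding sequence lies at the 3′ end.

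The kinases of the complex had few peaks. GSK3A (chr19:42230190-42242602) had 3, 3 and 3 peaks in control and 4, 2 and 3 in knockdown (exact permutation p = 1). Its region 1 (chr19:42239955-42240969) was in all 6 libraries with 6 different lengths from 381 to 1015 bases, and it ranked at 50.5, 27.5 and 37.0 in control and 68.9, 63.2 and 46.6 in knockdown. The means were 38.4 ± 11.5 and 59.6 ± 11.6 (SD, n = 3), and control replicate 1 overlapped the knockdown libraries (exact permutation p = 0.2, adjusted p = 0.669). Region 3 (chr19:42236606-42236716) was missing from knockdown replicate 1 and region 5 (chr19:42230186-42230867) from knockdown replicate 2, while regions 2 and 4 were listed in knockdown replicate 1 alone.

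GSK3B, the second GSK3 gene (chr3:119821321-120094447), had 2, 1 and 1 peaks in control and 1, 2 and 1 in knockdown (exact permutation p = 1). Region 1 (chr3:120093347-120094417), which holds the CCG repeat shown above, had ranks of 87.9, 87.3 and 76.1 in control and 72.8, 94.0 and 81.8 in knockdown. The groups overlapped, with means of 83.8 ± 6.65 and 82.9 ± 10.6 (SD, n = 3; exact permutation p = 1). Region 2 (chr3:120002046-120002239) was listed at 28.0 in control replicate 1 and at 11.1 in knockdown replicate 2.

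CSNK1A1, the priming kinase of beta-catenin (chr5:149492982-149551439), had 0, 0 and 1 peaks in control and 2, 1 and 1 in knockdown. This was the largest difference of mean peak number among the 10, 0.333 ± 0.577 against 1.33 ± 0.577 (SD, n = 3), and control replicate 3 overlapped the knockdown libraries (exact permutation p = 0.3; Fisher's exact test of presence, p = 0.4). Region 1 at the gene start (chr5:149550842-149551552) had ranks of 56.3 in control replicate 3 and of 57.6, 49.5 and 55.2 in knockdown, near the middle of each list. Region 2 (chr5:149550075-149550299) was in knockdown replicate 1 alone, at 6.50. Without control replicate 3 the gene would have had peaks in the knockdown libraries alone.

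CTNNB1, which encodes beta-catenin (chr3:41199505-41240443), was credited with 1, 0 and 0 peaks in control and 0, 0 and 0 in knockdown. That count turned on the edge of the gene model, because its single region (chr3:41199229-41199670) had a peak in all 6 libraries that crossed the annotated start. All 6 peaks ended at the same base, and in 5 of them the midpoint fell before the start because the peak reached further upstream. With any overlap in place of the midpoint CTNNB1 had 1 peak in each library, and no count of the other 9 genes changed. The ranks of that region ran 53.6, 75.5 and 71.9 in control and 84.3, 27.3 and 50.6 in knockdown. Knockdown replicates 1 and 2 were the highest and lowest of the 6, so the means of 67.0 ± 11.8 and 54.0 ± 28.7 (SD, n = 3) did not separate (exact permutation p = 0.6, adjusted p = 0.908). No library listed a peak further along the gene.

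TCF7L2, the factor through which beta-catenin reaches DNA (chr10:112950247-113167678), had 7, 8 and 5 peaks in control and 8, 8 and 6 in knockdown. The means of 6.67 ± 1.53 and 7.33 ± 1.15 (SD, n = 3) overlapped (exact permutation p = 0.7). Of its 9 regions, 4 were found in all 6 libraries, and these lay with region 7 in the cluster towards the 3′ end. Region 8 (chr10:113151725-113151884) had the highest ranks, 83.4, 78.5 and 99.96 in control and 92.7, 84.4 and 86.5 in knockdown. Region 4 (chr10:113141184-113141316) had 79.6, 79.3 and 59.9 in control and 58.7, 79.3 and 78.6 in knockdown, and region 6 (chr10:113146011-113146097) had 48.2, 71.1 and 62.8 in control and 27.2, 57.5 and 45.8 in knockdown. Neither pair of groups separated (exact permutation p = 0.5 and 0.2). Region 9 at the 3′ end (chr10:113165555-113167367) had ranks of 81.5, 83.4 and 93.2 in control and 92.7 in knockdown replicate 1. In knockdown replicate 2 its peak was the longest of any member, 1813 bases, at a rank of 1.82, and knockdown replicate 3 listed none.

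The second question was whether any region was gained or lost with knockdown. TCF7L2 region 3 (chr10:113040025-113040126, 41.3% of the span) was the 1 group-specific region of the 53. It was listed in the 3 knockdown libraries at ranks of 32.8, 20.2 and 49.1 and in no control list (p = 0.1 by Fisher's exact test, two-sided, the lowest value 3 against 3 can give). Over all protein-coding genes 1.17% of regions met this criterion, 0.830% with knockdown peaks and 0.340% with control peaks, so 1 of 53 is near that background. The 3 peaks of TCF7L2 region 3 all ranked below 50, so keeping the 50% of highest-scored peaks removed the region by construction. When the same number of highest-scored peaks was taken from each library, the peak of knockdown replicate 1 was cut. The region was then listed in 2 knockdown libraries and in no control library. A difference of at least 2 libraries was seen in 5 of the 53 regions, against 10.0% of all regions. These were TCF7L2 region 3, LRP5 region 8 and CSNK1A1 region 1 towards knockdown (5.98% of all regions) and LRP5 region 7 and LRP6 region 3 towards control (4.05%). The share of members was again close to that of all regions.

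The third question was whether the peaks present in every library changed in rank. Among the 25 regions found in all 6 libraries, the ranks of the 2 groups did not overlap in 4, each with the higher ranks in knockdown. Over the 8896 such regions of all genes this was seen in 11.1%, with knockdown higher in 7.12% and control higher in 4.00%. AXIN1 region 3 (chr16:309973-310069) ranked at 28.9, 51.3 and 76.8 in control and 82.7, 82.3 and 78.2 in knockdown, with control replicate 3 just below the lowest knockdown library. AXIN1 region 4 (chr16:304304-304441) ranked at 62.5, 77.0 and 74.1 in control and 82.4, 79.5 and 78.5 in knockdown. In LRP5 region 19 (chr11:68438446-68438682) the ranks were 36.3, 54.9 and 42.0 against 77.7, 68.6 and 59.7, the widest gap of the 4. In TCF7L2 region 5 (chr10:113143923-113144025) they were 63.5, 66.1 and 65.1 against 66.7, 77.8 and 81.9, with knockdown replicate 1 within 1 point of the highest control library.

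The differences of the mean rank, knockdown minus control, were 28.8 for AXIN1 region 3, 8.91 for AXIN1 region 4, 24.3 for LRP5 region 19 and 10.6 for TCF7L2 region 5. Each had an exact permutation p of 0.1, the smallest possible, and an adjusted p of 0.669 over the 8896 regions, so none passed. AXIN1 region 4 was called in every setting tried. AXIN1 region 3 and TCF7L2 region 5 were not called with the same number of peaks from each library. AXIN1 region 3 and LRP5 region 19 had control peaks ranked below 50. With the 50% highest-scored peaks they were therefore no longer in all 6 libraries and could not be called. LRP5 region 19 then leaned to knockdown by at least 2 libraries. With the same number of peaks, AXIN1 region 2 was separated in the opposite direction, with control higher. Over the 25 regions the mean rank was higher in knockdown in 14 (56%, against 54.1% of all such regions) and the median difference was 0.61 points, against 0.78 points for all. LRP5 had 7 of its 10 such regions and AXIN1 4 of its 5 on the side of knockdown, TCF7L2 2 of 4 and LRP6 0 of 2. GSK3A had 1 of 1, and AXIN2, GSK3B and CTNNB1 had 0 of 1 each. Some of these differences were small, such as 0.42 points in AXIN1 region 5, 0.65 in LRP5 region 16 and -0.38 in LRP5 region 15.

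**Figure D4:**
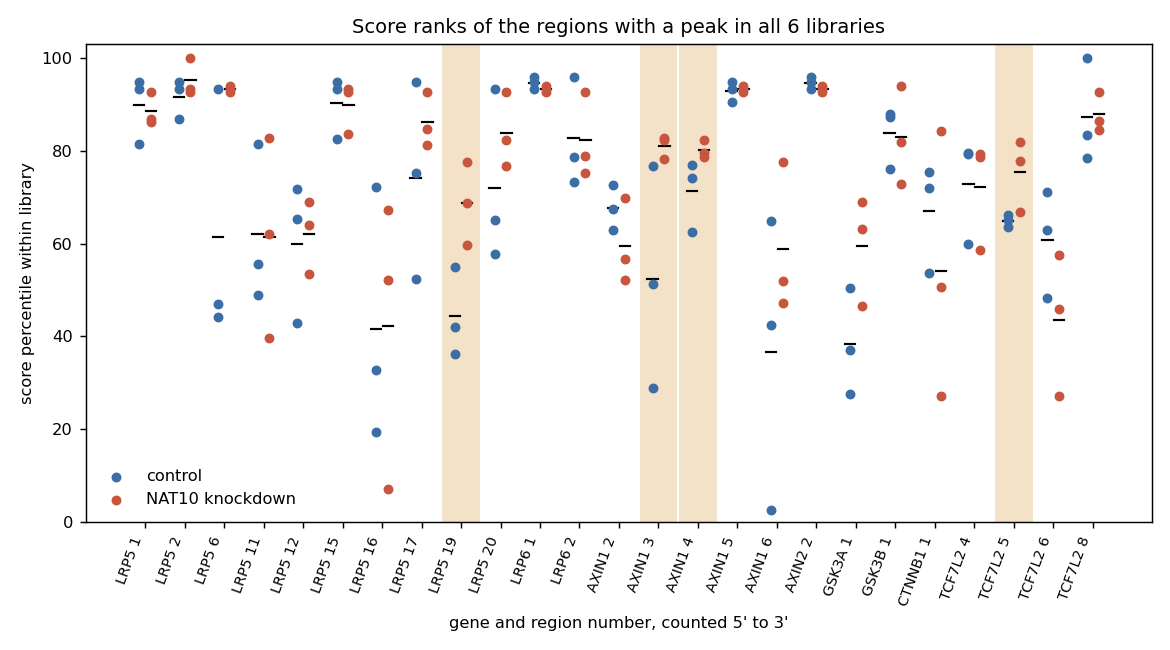
Score percentile within each library (y axis) of the 25 regions with a peak in all 6 libraries (x axis, gene and region number), control in blue, NAT10 knockdown in red, black bars for the means of 3 libraries. Shading marks the 4 regions in which the groups do not overlap (LRP5 region 19, AXIN1 regions 3 and 4, TCF7L2 region 5), all with knockdown above control.

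The rest of the pathway was read from 6 lists holding 100 further genes, of which 79 had a peak and 38 had one in all 6 libraries. Peaks in all 6 libraries were found in 13 of 21 cytoplasmic components, 10 of 16 nuclear partners, 7 of 18 receptors and their turnover factors, 6 of 15 target genes, 4 of 25 ligands and agonists and 0 of 11 secreted antagonists. None of the 100 was group-specific. In 3 genes the peak numbers did not overlap between groups, each with more in knockdown. SMARCA4, a chromatin remodelling ATPase that works with beta-catenin, had 13, 14 and 11 peaks in control and 17, 15 and 16 in knockdown. BCL9, which joins beta-catenin to its co-activator, had 2, 5 and 5 against 9, 8 and 6, and the casein kinase CSNK1G2 had 4, 4 and 4 against 5, 5 and 5. Each had an exact permutation p of 0.1 and an adjusted p of 1. The share, 3 of 79, stood beside 1.57% of all genes with more peaks in knockdown.

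Among the 2 genes with the most peaks in each list, the groups overlapped except in SMARCA4 and CSNK1G2. The acetyltransferase CREBBP had 10, 9 and 12 peaks in control and 14, 12 and 13 in knockdown, and the target gene EPHB2 had 6, 7 and 10 against 7, 8 and 9. The receptor LGR6 had 5, 6 and 9 against 5, 5 and 7, and ZNRF3, which removes Frizzled from the membrane, had 6, 6 and 6 against 6, 5 and 6. Among ligands WNT10A had 1, 2 and 3 peaks in control and 4, 3 and 4 in knockdown, touching at 3 (exact permutation p = 0.2). WNT11 had 3, 2 and 3 against 2, 2 and 3. WNT6, with 3, 2 and 2 against 3, 2 and 3, tied with WNT11, and ties were ordered by name. CSNK1E had 5, 4 and 5 against 6, 4 and 4, and the antagonists DKK3 and SFRP5 had no peak in at least 1 library of each group. Counted 1 time each, the 100 genes held 281 regions, of which 4 were specific to knockdown, all in nuclear partners, and 2 to control, beside 0.830% and 0.340% of the regions of all genes. Of their 70 regions found in all 6 libraries, 1 had separated ranks with knockdown higher and 4, all in cytoplasmic components, with control higher, beside 7.12% and 4.00% of all such regions.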

How the data were processed

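The study sequenced input and anti-ac4C libraries of SW620 cells; the 6 input samples have no list used here. RNA was fragmented before immunoprecipitation. The authors deposited 1 peak list per immunoprecipitated library, limited to mRNA and not pooled, with peak names of the form MACS gives and a score per peak whose scale is not stated. Coordinates are on GRCh38 per the labels; the aligner, the caller's version and settings and the annotation are not given in the sources used here. Gene spans came from RefSeq (GRCh38.p14). Strand came from the RefSeq start windows for 15843 genes and otherwise from the majority of peaks in the span (2384 genes, LRP6 and AXIN2 among them); the 2 sources were the same for 96.7% of the 10029 genes with both. Starts are printed 1-based.

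Peaks sharing at least 1 base on a strand were merged into regions. Groups of 3 were compared by two-sided exact permutation tests, with Benjamini-Hochberg adjustment over all genes or regions, and presence by Fisher's exact test. All members were named, with their regions found in all 6 libraries or called, and the 2 genes with the most peaks of each further list besides any called. The members and lists were chosen with earlier results of these data known. Same-numbered libraries did not deviate together (correlations of 0.029, 0.0035 and 0.033 over 40623 regions), so replicate numbers were not used as a block in the main tests. The code was tested on simulated data. Calculations used Python 3.11.15, numpy 2.4.6, pandas 2.3.3, scipy 1.17.1 and matplotlib 3.10.9.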

Additional observations from a re-analysis of the deposited data

How the results depend on the processing

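Peaks were counted without regard to strand, by any overlap with the gene, in the span of 1 gene alone, with neighbours closer than 100 bases joined and with 50% of a region covered, and none of these changed a call in the 10 genes. With the 50% highest-scored peaks of each library, 0 regions met the presence criterion in place of 1. Separated ranks were seen in 2 of 15 regions in place of 4 of 25. Over all such regions, knockdown was then higher in 6.26% and control in 3.61%. A higher mean in knockdown was seen in 5 genes in place of 3. The difference of peak number, knockdown minus control, then changed sign in APC (0.33), TCF7L2 (-1.67) and LRP5 (2.0). With the same number of peaks (17877) from each library, 0 regions met the presence criterion. Separated ranks were seen in 3 of 23 regions, 2 with knockdown and 1 (AXIN1 region 2) with control higher. Over all such regions the shares were 6.67% and 4.78%. The difference of peak number was -0.33 in TCF7L2 and 0.33 in LRP5. Regions that lose a peak to the cut leave the counts by construction. No other cause of these changes was tested.

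With 1 library left out in turn, separated ranks were seen in 5 to 11 regions, peaks in the libraries of one group alone in 1 to 5 regions and 0 to 1 genes, a lean of at least 2 libraries in 4 to 8 regions, separated peak numbers in 0 to 2 genes and a higher mean in knockdown in 3 to 6 genes. A split of 2 against 3 meets the criteria for separated ranks, separated numbers and group-specific peaks more easily by construction. The lean is met more easily only towards the group that keeps 3 libraries. Leaving out control replicate 3 gave the highest number of separated ranks (11 of 25 regions, 8 of them with knockdown higher). Over all regions in every remaining library, 16.8% then separated with knockdown higher and 18.0% with control higher. That setting also gave the most group-specific regions (5) and genes with separated numbers (2, CSNK1A1 and LRP6), and CSNK1A1 was then group-specific. The shares of all regions and genes for these 2 counts are not given here. Separated ranks numbered 8 without control replicate 1 and 7 without knockdown replicate 1 or 2. Without knockdown replicate 1 the lean was 1 region to knockdown and 7 to control. With 3 control and 2 knockdown libraries left, the criterion is met more easily towards control by construction. The share over all regions in that setting is not given here, so no direction is read from these counts. Genes with a higher mean in knockdown numbered 6 without knockdown replicate 2 or 3. The difference in total peaks ran from -2.83 to 2.67, in LRP5 from -1.83 to 1.0 and in TCF7L2 from -0.17 to 1.33, so their signs rest on single libraries. Regions at the tied top score in all 6 libraries, AXIN2 region 2 and LRP6 region 1, were separated without control replicate 3 or knockdown replicate 2, where the order reflects the number of ties. Setting every top score to the same rank, or keeping the 13 of the 25 regions with no library at the top score, both chosen after seeing the data, gave the same 4 regions as with all libraries.

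In a fit that blocked on replicate number, the difference in total peaks was 0.33 and no gene passed (exact sign-flip permutation test, lowest p = 0.5 among the 10 genes, with 0.25 the smallest that 3 pairs allow). The lists hold no depth, so a peak that is not listed cannot be told from one that was missed.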
